A study of Homo sapiens with 4 samples.

Results

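The genes described here are the 54 that encode the G1/S transition and DNA replication machinery, out of 18377 genes measured on the array. They were listed by name for their known place in the pathway, with earlier results of these data known. Each gene was represented by the probe set with the highest mean over the 4 arrays. All 54 had a probe set that the platform annotation assigns to a single gene, and UHRF1 alone had 2. All 54 also passed the filter on dim genes, which left 11026 genes for testing. They were measured in OPM2 cells, an established human multiple myeloma line, as 2 control cultures given the solvent DMSO and 2 cultures given VS-5584 (SB2343), a small molecule that blocks PI3 kinase and mTOR signalling. Both groups were harvested at 24 h. The sample labels give the dose as 123 nM and the series' design text as 125 nM. No other agent or genotype separates the groups in the labels, and a single line represents the disease. The titles call the cultures biological replicates without saying how they were separated, so p-values measure the spread between these 4 samples, which may be partly technical.

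A cell commits to dividing when cyclin E with CDK2 and the E2F transcription factors switch on the genes needed to copy DNA. The origin recognition complex (ORC), CDC6 and CDT1 load the ring-shaped MCM2-7 helicase onto origins in G1, geminin blocks reloading, and the kinase CDC7-DBF4 with MCM10, CDC45 and GINS turns the loaded rings into active forks in S phase. Polymerase alpha-primase starts each strand, polymerases delta and epsilon extend it on the PCNA clamp, and ribonucleotide reductase and thymidylate synthase supply the nucleotides. PI3 kinase and mTOR carry growth-factor and nutrient signals that promote passage through G1. In a proliferating line such as OPM2 many of these mRNAs rise and fall with the cell cycle. In bulk RNA, fewer cells in S phase and less RNA per cell cannot be told apart.

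The arrays were checked before the members were compared. All 10 markers of plasma cells and of this line's translocation passed the filter on dim genes, among them SDC1, XBP1, PRDM1, IRF4 and TNFRSF17, and 13 of 16 markers of T cells, myeloid, epithelial and fibroblast cells did not. Those that passed were the fibroblast collagens COL1A1 and COL1A2 and the epithelial keratin KRT18. KRT18 was highest on treated replicate 2, with an intensity of 171.6. There the 4 epithelial markers summed to 281.8, against 170.5 and 198.7 on the controls and 176.9 on treated replicate 1. The 10 plasma cell markers summed to 9121.3 and 9556.2 on the controls and to 9558.4 and 10682.2 on the treated arrays. The 4 T cell markers summed to 129.7 to 140.1 and the 4 myeloid markers to 138.9 to 149.0 over the 4 arrays. The 4 fibroblast markers summed to 213.9 to 214.9 on the controls and to 228.8 and 232.4 on the treated arrays. Of the 16 markers of other cell types, 8 had both treated arrays above both controls, among them all 4 fibroblast markers, and 0 had both below. The shares over all genes tested were 14.7% and 29.2%. The part of these markers in the results was not tested. Treated replicate 2 had a narrower distribution than the other arrays, with 1.74 log2 units between the quartiles of its probe sets against 1.93 to 1.95. Results below are therefore also given for each treated array.

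Replication genes had lower median intensities after VS-5584 at every step of the pathway. The mean of the treated arrays was below that of the controls for 53 of the 54 genes, against 62.7% of all genes tested, E2F1 being the exception. The median log2 difference (treated minus control) was -0.49, a 1.40-fold lower intensity, against -0.06 over all genes tested. Both treated arrays lay below both controls for 45 members, against 29.2% of all genes, and both lay above for 0, against 14.7%. The differences of the 54 genes ran from -0.97 for ORC1 to 0.02 for E2F1.

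Tested gene by gene, 0 of these differences passed. With limma's moderated test and Benjamini-Hochberg adjustment over all genes, 0 members had an adjusted p under 0.05, as had 0% of all genes tested, and the smallest adjusted p among members was 0.198, for GINS1. At an unadjusted p under 0.05, limma counted 35 members lower, against 8.93% of genes, and 0 higher, against 1.49%. An unmoderated test in the same linear model also passed 0 members after adjustment and counted 1 member lower at an unadjusted p under 0.05, against 2.22% of genes. With 2 samples against 2, an exact permutation test of any single gene cannot give a two-sided p below 0.333. The word lower is used below for the measured values and does not stand for a passed test.

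The 2 treated arrays differed in how far they lay below the controls. All 54 genes were lower on treated replicate 2 than on treated replicate 1, where 72.2% of all genes were. Against the control mean, the median was -0.23 on treated replicate 1, where that of all genes was -0.0022, and -0.76 on treated replicate 2, where that of all genes was -0.14. On treated replicate 1 alone, 49 of the 54 genes lay below the control mean and 45 below both controls, against 50.6% and 34.6% of all genes. On treated replicate 2, all 54 lay below the control mean, against 67.4%. The counts given next for fits without 1 array come from fits that leave 1 sample in a group. Their p-values rest only on the spread within the other group, so no conclusion is drawn from these counts. Without treated replicate 2, limma counted 21 members lower at an unadjusted p under 0.05, against 4.41% of genes, and 0 passed after adjustment, against 0.0181%. Without treated replicate 1, 48 were lower at an unadjusted p under 0.05, against 32.7%, and 47 passed after adjustment, against 23.9%. Without control replicate 1, ORC1 and MCM10 passed, against 0.172% of all genes. Among the settings for scaling, the filter on dim genes and the prior variance, limma passed 1 member after cyclic loess (GINS1), against 0.145% of genes, 5 with the dimmest 60% of genes left out, against 0.789%, and 6 with an intensity trend, against 0.726%.

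**Figure D1:**
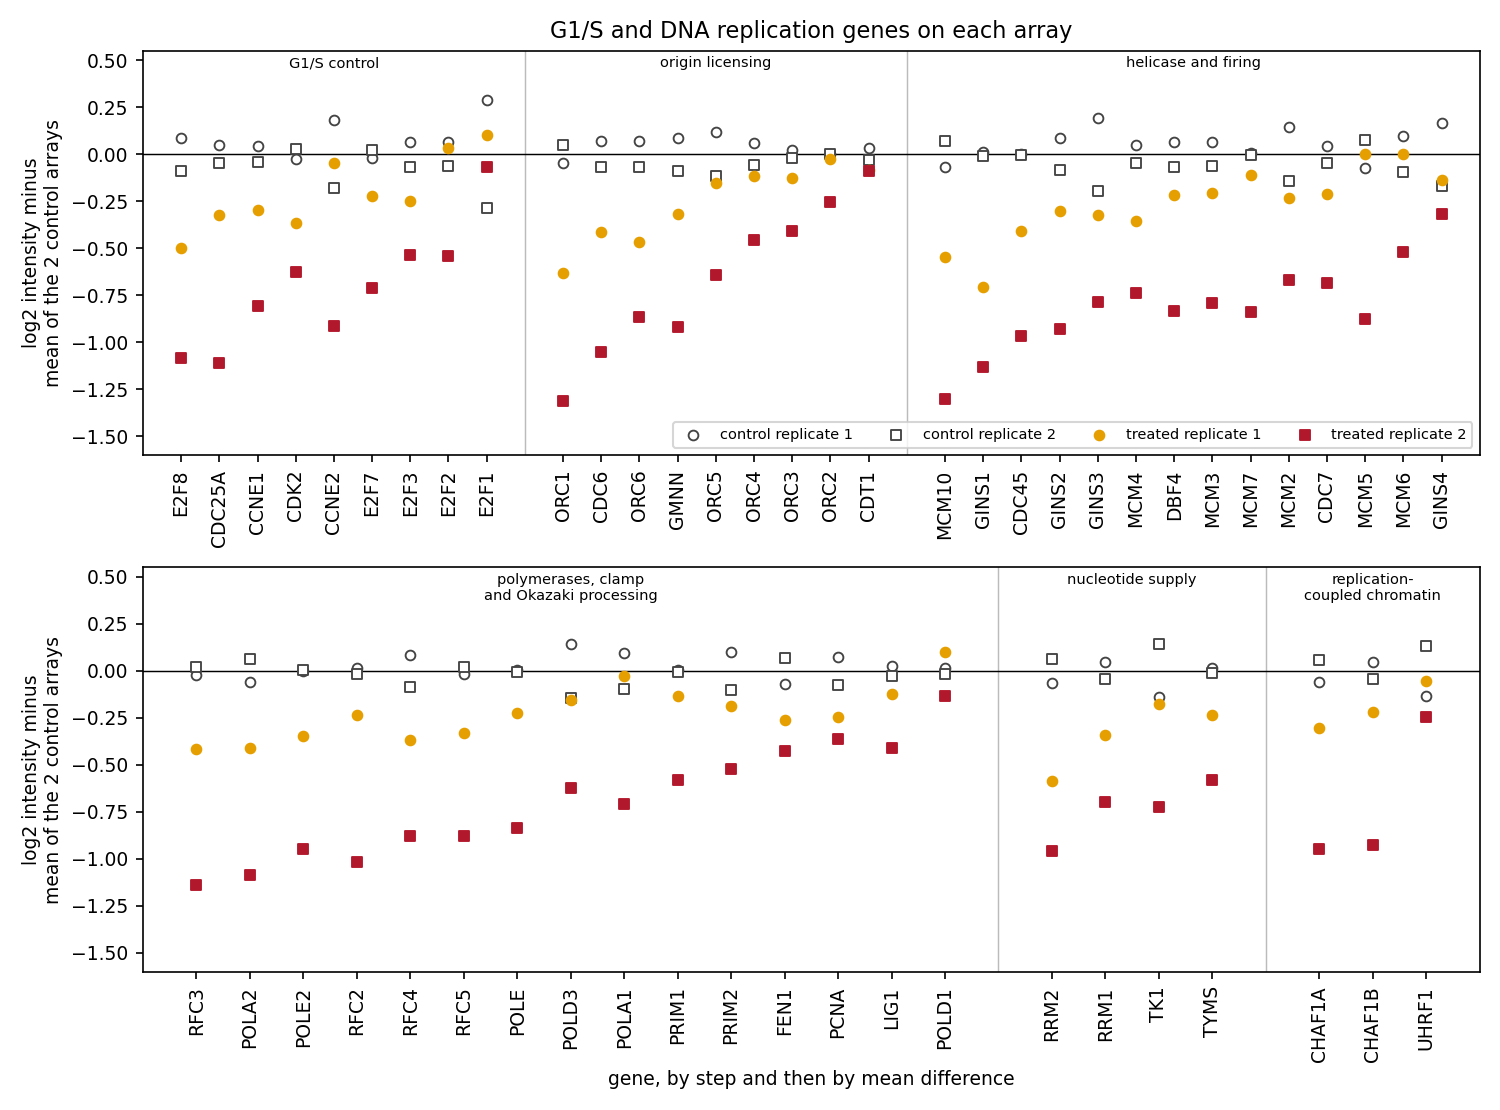
Each of the 54 genes on each of the 4 arrays, as log2 intensity minus the mean of the 2 control arrays (vertical axis), grouped by step and ordered by mean difference within a step. Open symbols are controls, the orange circle is treated replicate 1 and the red square treated replicate 2, which was the lower of the treated arrays for all 54 genes.

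The controls differed from each other by less than the treated arrays did. Control replicate 1 was above control replicate 2 for 40 of the 54 genes, with a median gap of 0.09. The gap between the treated arrays was wider than that between the controls for 49 genes, with a median of -0.50 (treated replicate 2 minus treated replicate 1). Treated replicate 1 was below control replicate 2 for 47 genes. The median of its differences was -0.20 from control replicate 2 and -0.28 from control replicate 1. Pairs of arrays that share no sample were also set side by side. Treated minus control was taken for the replicate 1 arrays and for the replicate 2 arrays. Both differences were below 0 for 50 of 54 genes, against 40.3% of all genes tested. They correlated across the 54 genes at Pearson's r = 0.547 (Spearman's rho = 0.559), against 0.483 (0.419) across all genes tested. With the pairs crossed, both were below 0 for 47 genes, against 37.8% of all genes. Then r was 0.565 (rho = 0.565), against 0.298 (0.282) across all genes tested. These correlations run across genes, which are not independent replicates, and are given as a description.

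**Figure D2:**
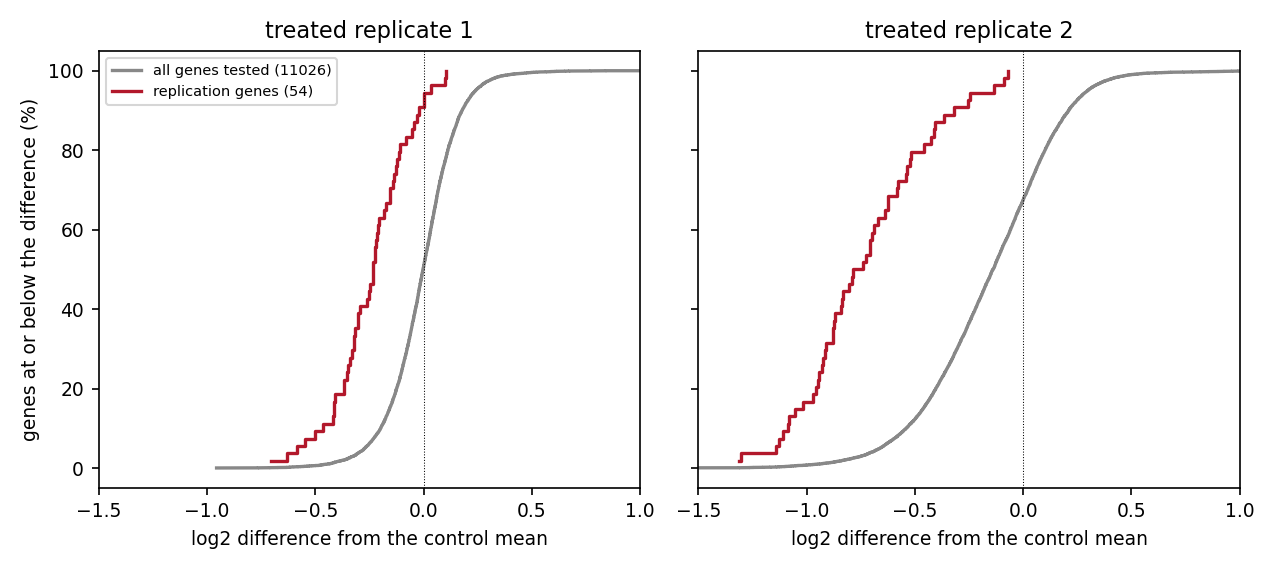
Cumulative share of genes (vertical axis, percent) at or below a given log2 difference from the control mean (horizontal axis), for treated replicate 1 (left) and treated replicate 2 (right). The red line of the 54 replication genes lies to the left of the grey line of all 11026 genes on both arrays, with medians of -0.23 and -0.76.

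Members were frequent among the genes with the lowest differences. Of the 551 genes that made up the lowest 5% of mean differences, 33 were members, or 61.1% of the 54. On treated replicate 1 alone, the lowest 5% held 22 members (40.7%), and on treated replicate 2 alone 34 (63%). The members were also described by brightness, since treated replicate 2 had a median difference of 0.04 over the dimmest tertile of genes and of -0.25 over the brightest. In the dimmest tertile of genes tested, the 10 members had a median difference of -0.25, against 0.04 over all genes of that tertile. In the middle tertile the 17 members had -0.50, against -0.11, and in the brightest the 27 members had -0.52, against -0.14. On treated replicate 1 alone, the members' medians in these tertiles were -0.12, -0.23 and -0.30, against 0.02, -0.0064 and -0.03 over all genes.

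**Figure D3:**
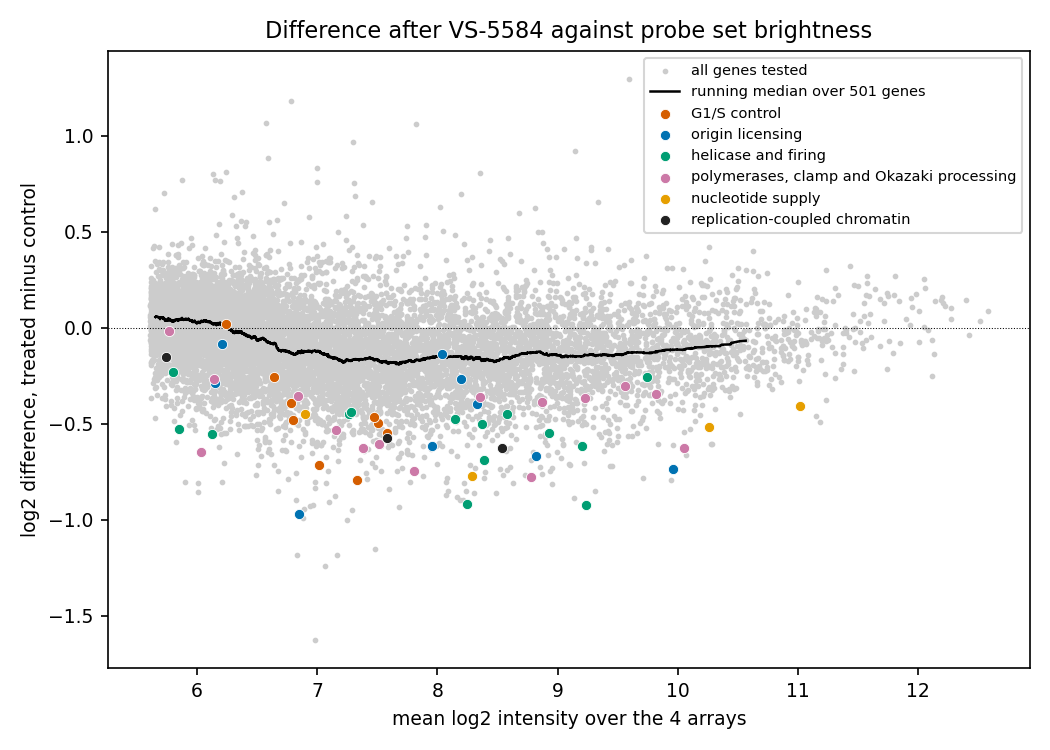
Log2 difference, treated minus control (vertical axis), against the mean log2 intensity over the 4 arrays (horizontal axis) for all genes tested (grey) and the 54 replication genes, coloured by step. The black line is the running median over 501 genes, and 53 of the 54 coloured points lie below 0.

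The promoters of the members were searched for sequences to which E2F factors are known to bind. RefSeq's promoter table (build GRCh38.p14, 250 bases before to 50 bases after a transcription start) held 47 of the 54 genes. An E2F word (TTTCCCGC, TTTCGCGC, TTTGCCGC or TTTGGCGC, on either strand) was present at the first-listed start of 23 of these 47 genes (48.9%), against 5.6% of the 8881 tested genes in the table and 3.33% of all 27305 genes in it. The related core TTCCCGCC, which can overlap TTTCCCGC, was present in 13 (27.7%), against 5.36% of tested genes. Either was present in 29 (61.7%), against 9.4%. The CCAAT box (CCAAT, either strand), to which the factor NF-Y binds, was present in 25 (53.2%), against 37.1%. The element TTTGAA, known from promoters of mitotic genes, was present in 3 (6.38%), against 9.65%. Taking every listed start of a gene, the E2F word was present in 25 of the 47 genes (53.2%), against 6.81% of tested genes.

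Genes with and without these letters covered much the same range of differences, and their difference was not tested. The 29 genes with either E2F sequence had a median log2 difference of -0.47 and ran from -0.92 to 0.02, and the 18 without had -0.54 and ran from -0.97 to -0.02. On treated replicate 1 these medians were -0.23 and -0.24, and on treated replicate 2 -0.71 and -0.82. The promoters below belong to the 2 genes with the largest difference in each of origin licensing, helicase and nucleotide supply. Each line gives the 150 bases before the most upstream listed start, 5′ to 3′ on the gene's strand, with CCAAT boxes and E2F words or cores in capitals on either strand (a CCAAT box on the other strand reads ATTGG).
ORC1 promoter, chr1:52404424-52404573, minus strand: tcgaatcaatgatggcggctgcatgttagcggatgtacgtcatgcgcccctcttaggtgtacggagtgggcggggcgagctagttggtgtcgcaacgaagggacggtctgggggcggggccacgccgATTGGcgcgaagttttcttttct
CDC6 promoter, chr17:40287729-40287878, plus strand: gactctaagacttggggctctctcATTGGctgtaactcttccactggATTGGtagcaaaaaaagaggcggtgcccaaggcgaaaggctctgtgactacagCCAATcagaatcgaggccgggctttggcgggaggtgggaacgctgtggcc
MCM10 promoter, chr10:13161408-13161557, plus strand: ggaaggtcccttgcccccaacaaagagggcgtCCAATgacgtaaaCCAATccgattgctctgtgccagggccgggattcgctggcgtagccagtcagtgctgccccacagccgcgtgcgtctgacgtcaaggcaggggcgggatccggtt
GINS1 promoter, chr20:25407523-25407672, plus strand: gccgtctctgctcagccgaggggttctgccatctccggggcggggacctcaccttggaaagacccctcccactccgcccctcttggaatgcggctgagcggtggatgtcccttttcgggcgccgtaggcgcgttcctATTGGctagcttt
RRM2 promoter, chr2:10122418-10122567, plus strand: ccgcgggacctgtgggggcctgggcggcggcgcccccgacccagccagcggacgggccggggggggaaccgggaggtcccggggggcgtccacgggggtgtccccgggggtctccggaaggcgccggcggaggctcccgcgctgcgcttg
RRM1 promoter, chr11:4094535-4094684, plus strand: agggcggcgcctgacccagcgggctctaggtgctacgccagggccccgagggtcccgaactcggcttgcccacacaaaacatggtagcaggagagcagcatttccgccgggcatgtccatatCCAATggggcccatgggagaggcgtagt
None of these 6 windows held an exact match to an E2F word or core, and 5 of them held 1 to 3 CCAAT boxes. Only exact matches were counted, so sequences a letter away from a listed word, such as tttggcgg in CDC6, were not. In CDC6 and GINS1 the E2F word TTTGGCGC, on the other strand in GINS1, begins just after the start, at bases 8 and 6 and outside the window shown. RRM1 has the core TTCCCGCC beginning 223 bases before its start, also outside the window shown. RRM2 has 2 listed starts, and the window shown, before the more upstream one, held neither sequence. Before its first-listed start, which the counts above use, RRM2 has 3 CCAAT boxes, outside the window shown. The GINS1 window lies inside the span of the long noncoding RNA gene LOC105372581, and the ORC1 window inside the longest annotated span of ORC1 itself.

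A further 3 promoters, chosen after the values and matches were seen, hold the E2F word at genes across the range of differences, from -0.75 for POLA2 through -0.26 for MCM6 to 0.02 for E2F1.
POLA2 promoter, chr11:65261812-65261961, plus strand: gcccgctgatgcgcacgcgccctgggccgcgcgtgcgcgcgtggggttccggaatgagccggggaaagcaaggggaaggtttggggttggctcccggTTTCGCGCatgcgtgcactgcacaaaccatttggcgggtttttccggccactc
MCM6 promoter, chr2:135876444-135876593, minus strand: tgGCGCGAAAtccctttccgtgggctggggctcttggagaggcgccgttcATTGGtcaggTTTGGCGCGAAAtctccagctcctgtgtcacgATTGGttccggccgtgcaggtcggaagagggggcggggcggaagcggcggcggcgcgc
E2F1 promoter, chr20:33686386-33686535, minus strand: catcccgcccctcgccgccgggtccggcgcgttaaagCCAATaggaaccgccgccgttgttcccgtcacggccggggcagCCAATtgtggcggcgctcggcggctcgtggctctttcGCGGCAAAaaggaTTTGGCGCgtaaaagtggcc
The POLA2 window held 1 E2F match, that of MCM6 held 3 with 2 CCAAT boxes, and that of E2F1 held 2 with 2 CCAAT boxes. A match describes the letters in the window and does not show that a factor bound there.

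Regulators of the G1/S switch were lower apart from E2F1. In this group of 9 genes the median difference was -0.48, and was -0.25 on treated replicate 1 and -0.71 on replicate 2. Of the 9, 6 had both treated arrays below both controls, against 29.2% of all genes tested. CCNE1, the cyclin that activates CDK2 at the G1/S boundary, had log2 intensities of 7.90 and 7.81 in the controls and 7.56 and 7.05 in treated cells. The difference was -0.55 ± 0.18 (SE), and the groups did not overlap. CCNE2, the second E-type cyclin, was at 7.22 and 6.86 in the controls and at 6.99 and 6.13 in treated cells, so that treated replicate 1 lay between the controls. CDK2 was at 7.73 and 7.78 in the controls and at 7.39 and 7.13 in treated cells, a difference of -0.50 ± 0.14. CDC25A, the phosphatase that removes inhibitory phosphates from CDK2, was at 7.42 and 7.32 in the controls and at 7.05 and 6.26 in treated cells, a difference of -0.72 ± 0.22. The treated arrays of both CDK2 and CDC25A lay below both controls.

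Among the E2F factors, the size of the difference varied by member. E2F1, an activator, was at 6.52 and 5.94 in the controls and at 6.33 and 6.16 in treated cells, so that both treated arrays lay between the controls. Its difference was 0.02, with a 95% interval of -0.41 to 0.44. E2F2 and E2F3, the other activators measured, differed by -0.25 ± 0.19 and -0.39 ± 0.15 (SE). For E2F2, treated replicate 1 was within the control range and treated replicate 2 below it, while for E2F3 the groups did not overlap. E2F8, an atypical E2F that represses E2F targets later in S phase, was at 7.82 and 7.64 in the controls and at 7.23 and 6.65 in treated cells. Its difference of -0.79 ± 0.19 was the largest of the G1/S group (limma adjusted p = 0.276). E2F7, the other atypical repressor, differed by -0.47 ± 0.17, again without overlap.

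In origin licensing, no gene overlapped between groups, and the treated values were the lower ones in all 9, where 29.2% of all genes tested had both treated arrays below both controls. Their median was -0.40, at -0.15 for treated replicate 1 and -0.64 for treated replicate 2. ORC1, the subunit of the origin recognition complex whose level varies through the cycle, was at 7.29 and 7.38 in the controls and at 6.70 and 6.02 in treated cells. This difference of -0.97 ± 0.20 (SE), a 1.96-fold lower intensity, was the largest of the 54 genes and the 8th lowest of all genes tested (limma adjusted p = 0.254). ORC6, which helps to bring the helicase to the origin, was at 9.23 and 9.08 in the controls and at 8.69 and 8.29 in treated cells, a difference of -0.67 ± 0.16. The core subunits ORC2, ORC3, ORC4 and ORC5 differed by less, with -0.14, -0.27, -0.29 and -0.40. For ORC2, treated replicate 1 (8.085) lay just below the lower control (8.107). The 95% intervals of ORC2, ORC3, ORC4 and ORC5 included 0, and those of ORC1 and ORC6 did not. These intervals rest in part on the spread shared over all genes tested. The SD of ORC1 itself was 0.07 between the controls and 0.48 between the treated arrays. Whether the subunits differed from one another was not tested.

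The helicase loaders CDC6 and CDT1 and their inhibitor were lower on average, and whether they differed from one another was not tested. CDC6, the ATPase that joins ORC to load the MCM ring, was at 10.40 and 10.26 in the controls and at 9.91 and 9.27 in treated cells, a difference of -0.73 ± 0.20 (SE). CDT1, its partner in loading, was at 6.28 and 6.21 in the controls and at 6.17 and 6.16 in treated cells. Its treated arrays lay just below the controls, with a difference of -0.08 and a 95% interval of -0.38 to 0.21. GMNN, which encodes geminin, the inhibitor of CDT1, was at 8.35 and 8.18 in the controls and at 7.95 and 7.35 in treated cells, a difference of -0.62 ± 0.19. The CDC6 and GMNN values did not overlap between groups.

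The 6 subunits of the MCM2-7 ring were all lower on average. Their differences ran from -0.55 for MCM4 to -0.26 for MCM6, with a median of -0.46. MCM4 was at 9.25 and 9.15 in the controls and at 8.85 and 8.46 in treated cells, a difference of -0.55 ± 0.16 (SE). MCM2, MCM3 and MCM7 differed by -0.45, -0.50 and -0.47, each with both treated arrays below both controls. MCM5 was at 7.43 and 7.58 in the controls and at 7.50 and 6.63 in treated cells. MCM6 was at 9.97 and 9.77 in the controls and at 9.87 and 9.35 in treated cells. For MCM5 and MCM6, treated replicate 1 lay between the controls, and their mean differences of -0.44 and -0.26 became 0.00089 and 0.0019 without treated replicate 2.

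The factors that activate the loaded helicase included 2 of the 3 largest differences of the list. MCM10, which is needed to start unwinding, was at 9.63 and 9.77 in the controls and at 9.16 and 8.40 in treated cells, a difference of -0.92 ± 0.22 (SE; limma adjusted p = 0.276). GINS1, a subunit of the GINS complex that holds the active helicase together, was at 8.71 and 8.70 in the controls and at 7.999 and 7.58 in treated cells. Its difference was -0.92 ± 0.16 (limma adjusted p = 0.198), and its value of -0.71 on treated replicate 1 was the lowest of the 54 genes on that array. CDC45, the third component of the active helicase, was at 8.73 and 8.73 in the controls and at 8.32 and 7.76 in treated cells, a difference of -0.69 ± 0.18. All 3 of these genes had both treated arrays below both controls, against 29.2% of all genes tested.

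The other GINS subunits and the firing kinase were lower by less. GINS2 was at 9.60 and 9.43 in the controls and at 9.21 and 8.59 in treated cells, and GINS3 at 6.60 and 6.21 and at 6.08 and 5.62. These differences were -0.62 ± 0.20 and -0.55 ± 0.19 (SE), without overlap. GINS4 differed by -0.23 ± 0.16, and its treated replicate 1 (5.78) was above control replicate 2 (5.75). CDC7, the kinase that phosphorylates the MCM ring to fire origins, and DBF4, its activating subunit, differed by -0.45 ± 0.17 and -0.52 ± 0.19, both without overlap. Over the 14 helicase and firing genes the median was -0.51, and was -0.22 on treated replicate 1 and -0.81 on replicate 2. Of the 14, 11 had both treated arrays below both controls, against 29.2% of all genes tested.

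The genes of polymerase alpha-primase and polymerase epsilon were all lower on average. POLA2, the regulatory subunit of polymerase alpha, was at 8.12 and 8.24 in the controls and at 7.77 and 7.10 in treated cells, a difference of -0.75 ± 0.20 (SE). POLA1, its catalytic subunit, was at 9.50 and 9.31 in the controls and at 9.38 and 8.70 in treated cells, and treated replicate 1 lay between the controls. The primase subunit genes PRIM1 and PRIM2 differed by -0.36 ± 0.16 and -0.35 ± 0.16, without overlap. POLE, the catalytic subunit of the leading-strand polymerase epsilon, and POLE2, its accessory subunit, differed by -0.53 ± 0.19 and -0.65 ± 0.19. POLE2 was at 6.35 and 6.36 in the controls and at 6.01 and 5.41 in treated cells.

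Of the members in polymerase delta, which copies the lagging strand, POLD1, the catalytic subunit, was at 5.79 and 5.76 in the controls and at 5.88 and 5.64 in treated cells. Its groups overlapped, and the 95% interval of its difference ran from -0.33 to 0.29. POLD3, an accessory subunit, differed by -0.39 ± 0.18 (SE), without overlap. In the whole group of 15 polymerase, clamp and Okazaki genes the median was -0.39. It was -0.23 on treated replicate 1 and -0.71 on replicate 2. Of the 15, 13 had both treated arrays below both controls, against 29.2% of all genes tested.

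All 4 small subunits of the clamp loader RFC, which opens the PCNA ring, were lower, with differences of -0.78 to -0.60. RFC3 was at 9.14 and 9.19 in the controls and at 8.75 and 8.02 in treated cells, a difference of -0.78 ± 0.21 (SE; limma adjusted p = 0.307). RFC2, RFC4 and RFC5 differed by -0.63, -0.62 and -0.60. All 4 RFC genes had both treated arrays below both controls, against 29.2% of all genes tested. PCNA, the clamp itself, was at 9.78 and 9.63 in the controls and at 9.46 and 9.35 in treated cells, a difference of -0.30 ± 0.14. FEN1, the flap nuclease that trims Okazaki fragments, and LIG1, the ligase that joins them, differed by -0.34 ± 0.14 and -0.27 ± 0.15. For PCNA and FEN1 the treated arrays stood closer together than for most members, with -0.25 and -0.36 for PCNA and -0.26 and -0.43 for FEN1 against the control mean.

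All 4 nucleotide supply genes had both treated arrays below both controls, against 29.2% of all genes tested. Their median difference was -0.48, at -0.29 on treated replicate 1 and -0.71 on treated replicate 2. RRM2, the S-phase subunit of ribonucleotide reductase, was at 8.61 and 8.74 in the controls and at 8.09 and 7.72 in treated cells. Its difference of -0.77 ± 0.16 (SE) was a 1.71-fold lower intensity (limma adjusted p = 0.254). RRM1, the large subunit of the same enzyme, was at 10.56 and 10.47 in the controls and at 10.18 and 9.82 in treated cells, a difference of -0.52 ± 0.15. TYMS, thymidylate synthase, was at 11.24 and 11.21 in the controls and at 10.99 and 10.64 in treated cells, a difference of -0.41 ± 0.15. TK1, the salvage enzyme thymidine kinase, was at 6.98 and 7.26 in the controls and at 6.95 and 6.40 in treated cells. Treated replicate 1 of TK1 lay just under the lower control, and treated replicate 2 well under it.

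Of the 3 genes that restore chromatin behind the fork, the histone chaperone subunits CHAF1A and CHAF1B were lower without overlap. Of all genes tested, 29.2% had both treated arrays below both controls. CHAF1A was at 8.79 and 8.90 in the controls and at 8.54 and 7.90 in treated cells, a difference of -0.63 ± 0.20 (SE), and CHAF1B differed by -0.57 ± 0.21. UHRF1, which directs maintenance DNA methylation, was at 5.69 and 5.96 in the controls and at 5.77 and 5.57 in treated cells, and its groups overlapped. The brighter of its probe sets differed by -0.15 and the dimmer by 0.02, so the probe sets disagreed in sign.

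The 9 genes whose groups overlapped were CCNE2, E2F1, E2F2, MCM5, MCM6, GINS4, POLA1, POLD1 and UHRF1. In all 9, treated replicate 1 reached into or above the control range, and for E2F1 treated replicate 2 lay within it as well. Under median centring, cyclic loess and quantile normalization 54, 52 and 53 of the 54 genes were lower, the sign of E2F1 turning with median centring (-0.03) and that of ORC2 with cyclic loess (0.0036). The list's median under these scalings was -0.53, -0.36 and -0.39, against -0.11, -0.01 and -0.02 over all genes tested.

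**Figure D4:**
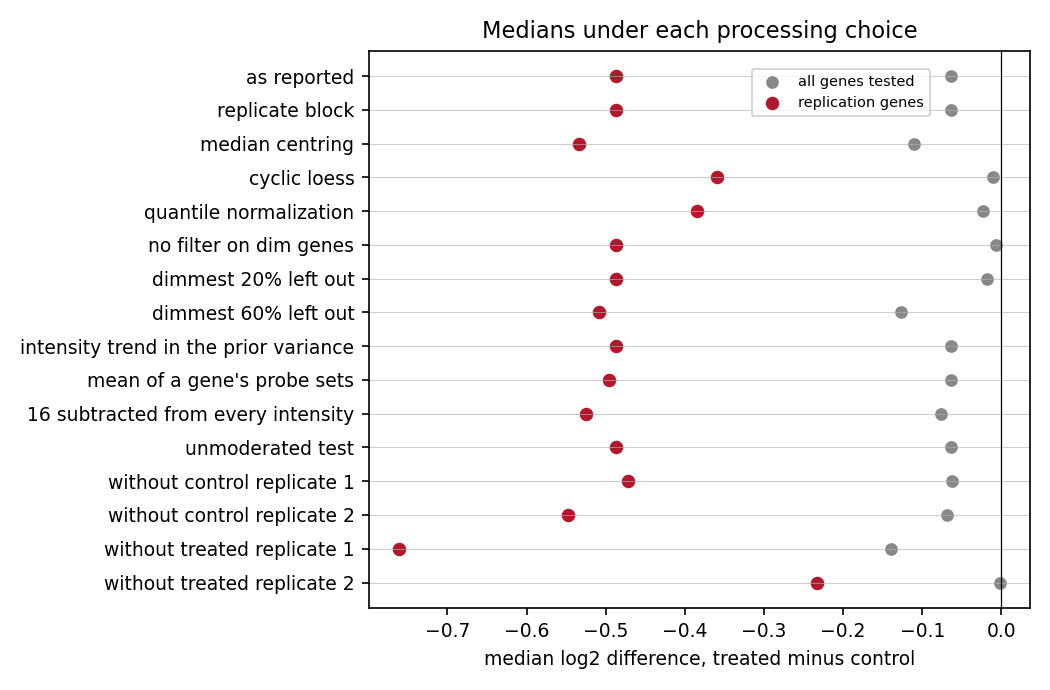
Median log2 difference, treated minus control (horizontal axis), of the replication genes (red) and of all genes tested (grey) under each processing choice and with each array left out in turn (vertical axis). The replication genes' median ran from -0.76 without treated replicate 1 to -0.23 without treated replicate 2.

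Other genes of the same pathway, listed by their role with earlier results of these data known, were also mostly lower. Of 59 such genes, 58 were named on the array and 57 were tested. Of these, 51 were lower on average, against 62.7% of all genes tested, and 42 had both treated arrays below both controls, against 29.2%, with a median of -0.34, against -0.06 over all genes. 0 passed limma's adjusted threshold, as did 0% of all genes, and 27 were lower and 1 higher at an unadjusted p under 0.05, against 8.93% and 1.49% of all genes. For treated replicate 1 alone their median was -0.15, and for treated replicate 2 alone -0.54. CLSPN (claspin, a fork checkpoint mediator) and TICRR (treslin, which helps to load CDC45) differed by -0.78 ± 0.20 and -0.67 ± 0.17 (SE), and ASF1B, a histone chaperone, by -0.61 ± 0.20. RPA1, the large subunit of the single-strand binding protein, DNMT1, the maintenance methyltransferase, and DUT, which removes dUTP, differed by -0.30 ± 0.16, -0.40 ± 0.17 and -0.14 ± 0.14.

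The pocket proteins that restrain E2F factors were mixed. RB1, the retinoblastoma gene, was at 9.50 and 9.21 in the controls and at 9.47 and 9.52 in treated cells, with a difference of 0.14 ± 0.15 (SE). RBL1, which encodes p107, was at 9.57 and 9.34 in the controls and at 9.30 and 8.60 in treated cells, a difference of -0.50 ± 0.21 without overlap. E2F4, an E2F that pairs with p107 and p130, differed by -0.37 ± 0.18, and TFDP1, the dimer partner of E2F factors, by -0.14 ± 0.14. SLBP, which binds histone mRNAs in S phase, differed by -0.07 ± 0.13, and its groups overlapped.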

How the data were processed

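Total RNA from 4 OPM2 cultures was hybridised to 4 one-colour arrays as biotin-labelled cDNA, per the labels' protocols. The authors deposited a linear intensity for each of 28869 probe sets. Their processing notes name RMA, with no version, yet each array has its own distribution and a minimum of 19.75 to 20.01. How these values followed from RMA is not stated in what was read here. Any added constant would make differences of dim genes too small. No detection calls were used, and 4 arrays set the precision.

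Intensities were turned into log2 values with no further scaling. Of the probe sets, 19310 carried 1 gene, 1752 several and 7807 none listed, and 19279 matched RefSeq (GRCh38.p14) by gene ID. The dimmest 40% of 18377 genes by mean (under an intensity of 48.9) were left out. Testing used limma 3.58.1 in R 4.3.3 (two-sided, lmFit with eBayes, Benjamini-Hochberg over 11026 genes, threshold 0.05). SEs and 95% intervals are that model's. The script was tested on simulated data. All 54 members could be named, with other pathway genes from a fixed list. The members and lists were chosen with earlier results of these data known. Promoters came from RefSeq's table, which held 47 members. Alternatives covered the replicate block, scaling, filter, prior variance, probe sets, an offset, the test, thresholds and leaving out each array. The brightness tertiles were added after the data were seen. Figures were drawn with matplotlib 3.10.9.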

Additional observations from a re-analysis of the deposited data

How the results depend on the processing

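With 2 arrays a group, a depth limit cannot be computed from intensities, and the arrays' number limits precision. The replicate block, prior variance, test, threshold and filter settings leave each gene's difference unchanged, so they could not change its direction. Under the scaling, probe set, offset and array settings, most members stayed lower and the list's median stayed below 0. With the dimmest 60% of genes left out, 44 of 44 members were lower, as E2F1 was no longer among the genes tested. The replicate numbers are not said to mark a shared batch. Across the 11026 genes tested, control replicate 1 minus 2 and treated replicate 1 minus 2 correlated at r = 0.156. There were 2 pairs of arrays, too few to establish pairing. With the replicate block, 27 members and 16 other pathway genes passed limma, against 3.92% of all genes tested. The differences themselves are the same with and without the block. The count of passing members was 1 after cyclic loess (GINS1), 5 with the dimmest 60% left out and 6 with an intensity trend. Of all genes tested, 0.145%, 0.789% and 0.726% passed. Without 1 array, 0 to 47 members passed, against 0.0181% to 23.9% of all genes. Of the other pathway genes, 1 passed with the dimmest 60% left out, 1 with an intensity trend and 0 to 35 without 1 array. The 47 and the 35 both came without treated replicate 1, where 23.9% of all genes passed. The count of lower members at an unadjusted p under 0.05 was 1 with the unmoderated test, against 2.22% of all genes. It was 21 to 48 without 1 array, against 3.94% to 32.7%. Leaving out 1 array leaves 1 sample in a group, so no conclusion is drawn from those counts. The median of origin licensing was -0.62 with the dimmest 60% left out, where 7 genes remained to be tested, and -0.64 to -0.15 without 1 array, and that of nucleotide supply -0.71 to -0.29. E2F1 turned to -0.028 with median centring and ran from -0.27 to 0.30 without 1 array, and ORC2 to 0.0036 after cyclic loess. Without treated replicate 2, E2F2, MCM5, MCM6 and POLD1 turned, running from -0.54 to 0.033, -0.87 to 0.00089, -0.52 to 0.0019 and -0.13 to 0.098 without 1 array, and 42 of 54 differences shrank by over 1.5 times. Other causes were not tested.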

Other observations

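Some other genes of the pathway, named here with their values known, complete the description. POLD4, the smallest subunit of polymerase delta, was at 6.97 and 6.87 in the controls and at 7.18 and 7.39 in treated cells, a log2 difference of 0.36 ± 0.14 (SE; limma adjusted p = 0.430), so both treated arrays lay above both controls. RBL2, the pocket protein p130 of resting cells, was at 8.06 and 7.84 in the controls and at 8.28 and 7.97 in treated cells, and its groups overlapped. In the DREAM complex, to which p130 belongs, LIN9 was at 7.82 and 7.80 in the controls and at 7.30 and 6.92 in treated cells, a difference of -0.70 ± 0.16, while LIN37 differed by -0.025 ± 0.14 with overlap.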
